A study of Canis lupus familiaris with 36 samples.

Results

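The T cell transcription factors described here are genes that T cells use to set and keep their identity. They were taken from a list of 9 gene symbols, namely GATA3, LEF1, TCF7, TOX, IKZF2, BCL11B, RUNX3, TBX21 and ETS1. The platform annotation paired 7 of these symbols with probe sets, out of 15115 genes named in all, and BCL11B and ETS1 are not analysed here. Where a gene had several probe sets, the one with the highest mean over all arrays stood for it. The rule that assigns probe sets to members uses no difference between tumours, although the list itself was drawn up with earlier results of these data known.

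These factors act at successive steps of T cell life. GATA3, a zinc finger protein, is needed for commitment to the T lineage in the thymus and later directs the type 2 helper programme. LEF1 and TCF7 are related HMG-box proteins that bind the same DNA motif, work with beta-catenin and with repressors of the TLE family, and are kept on in naive and memory-like T cells. TOX, another HMG-box protein, is required for the CD4 lineage in the thymus and is also known from chronically stimulated T cells. IKZF2 encodes Helios, an Ikaros family zinc finger protein found in immature thymocytes and in many regulatory T cells. TBX21 encodes T-bet, the regulator of type 1 helper and effector responses, and RUNX3 supports the CD8 and cytotoxic fate. These roles are known mainly from mouse and human.

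The tumours of 35 dogs of several breeds were profiled on 36 Affymetrix canine arrays, and no treatment is labelled. The T phenotype held 17 dogs. They comprised 4 LBT dogs (the label is not spelled out), 4 dogs with peripheral T-cell lymphoma, or PTCL, and 9 with T-zone lymphoma, or TZL. The B phenotype numbered 17 as well, made up of 10 dogs with diffuse large B-cell lymphoma, or DLBCL, 5 with marginal zone lymphoma, or MZL, and 2 labelled BL. A further dog, labelled NBNT, entered no comparison. It was a female Golden Retriever of 8 years with a low-grade tumour. LBT, DLBCL and BL tumours were high grade, TZL and MZL tumours low grade, and PTCL tumours high grade apart from 1 of intermediate grade, replicate 4, so grade and subtype cannot be told apart. Ages ran from 3 to 10 years in LBT, 6 to 14 in PTCL, 7 to 11 in TZL, 4 to 14 in DLBCL, 4 to 10 in MZL and 2 to 5 in BL. Golden Retrievers numbered 3, 1 and 8 of the LBT, PTCL and TZL dogs, and 6, 4 and 1 of the DLBCL, MZL and BL dogs. The other breeds were Labrador in LBT, Boxer and Bichon Frise in PTCL and Mastiff in TZL. Among B dogs they were Rottweiler, Boxer and Labrador in DLBCL, Mastiff in MZL and German Shepherd in BL. The T dogs were 9 males and 8 females, the B dogs 6 males and 11 females. The samples were primary tumours, dissociated mechanically and filtered, and the labels name no sort by cell type, so each value is taken as a mixture of tumour and other cells.

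All levels are given as log2 of the deposited intensity. Values under a log2 of 4 (intensity 16), the minimum used throughout, are given as measured but carry little order. The number of arrays limits the precision. The mean of 10 T cell markers (CD3E, CD2, CD5 and others) lay between 8.74 and 11.22 in T dogs, against 5.48 to 7.82 in B dogs, and the mean of 10 B cell markers between 2.39 and 7.49 in T dogs, against 7.12 to 8.51 in B dogs. The lineage labels matched the T cell marker means, which did not overlap, whereas the B cell marker means of T and B dogs overlapped. PAX5, a defining B cell factor, was below the minimum in every dog of both phenotypes. In tissue such as this, fewer cells of a type and less RNA per cell cannot be told apart. A set of 6 arrays, those of PTCL replicate 3, TZL replicates 1, 2 and 7 and DLBCL replicates 4 and 9, read the actin 3′ control probe set brighter than all other arrays, at a log2 of 13 or more, and results that change with this array set are given with and without it. The labels do not say what the set is.

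The comparison of T with B lymphomas asks which of these factors follow the lineage of the tumour. GATA3, LEF1 and TCF7 were high in nearly every T lymphoma and low in B lymphomas of all 3 subtypes. TOX and IKZF2 were also higher in T, but this rested mostly on the LBT and PTCL dogs. TBX21 and RUNX3 stayed near or below the minimum in most dogs.

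**Figure D1:**
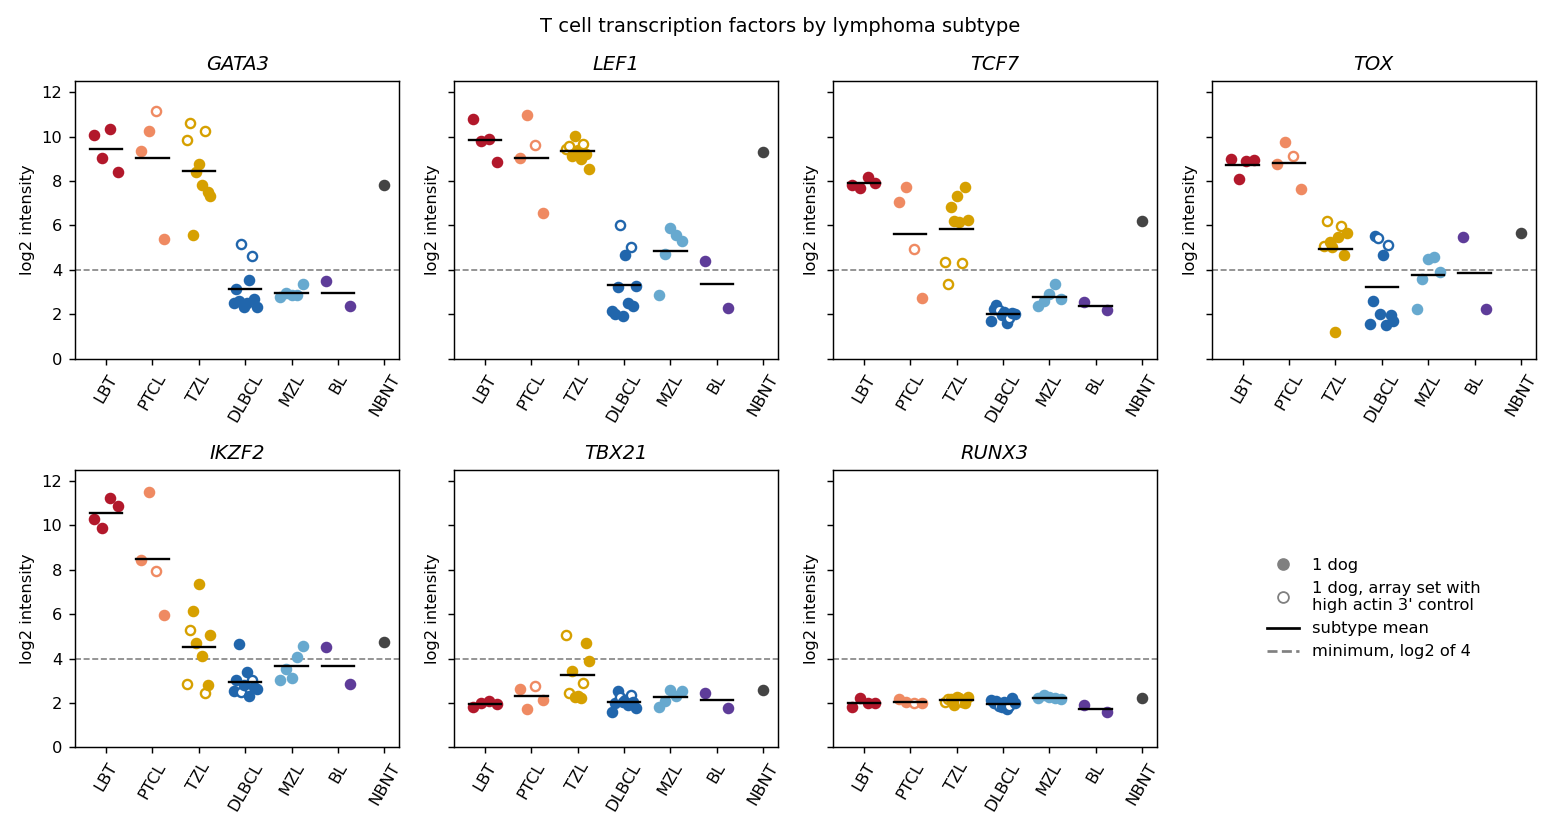
Log2 intensity (vertical axis) of the 7 factors in each dog, by subtype, with the NBNT dog at the right of each panel. Points are dogs, open points belong to the array set with a high actin 3′ control, bars are subtype means and the dashed line is the minimum of 4. GATA3 and LEF1 separate the T from the B subtypes, TOX and IKZF2 separate LBT and PTCL from most other dogs, and RUNX3 lies below the minimum in every dog.

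GATA3 had log2 levels of 10.06, 9.05, 10.34 and 8.40 in the LBT dogs, 9.34, 10.24, 11.16 and 5.39 in the PTCL dogs, and between 5.56 and 10.59 with a median of 8.42 in the TZL dogs. It lay between 2.32 and 5.15 with a median of 2.64 in the DLBCL dogs, at 2.77, 2.95, 2.86, 2.86 and 3.35 in the MZL dogs and at 3.52 and 2.38 in the BL dogs. The T and B ranges did not overlap, although the lowest T dog, at 5.39, was close to the highest B dog, at 5.15. The means were 8.83 ± 1.69 in T and 3.06 ± 0.79 in B (SD, n = 17 each), a log2 difference of 5.76 (SE 0.44, limma adjusted p = 2.94e-12). After low values were raised to the minimum, GATA3 was 26.4-fold higher in T. Only 2 of the 17 B dogs reached the minimum for GATA3, DLBCL replicates 4 and 9, and both belong to the array set.

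LEF1, kept on in naive T cells, was high in all 17 T dogs. It stood at 10.78, 9.82, 9.91 and 8.85 in LBT, at 9.05, 10.95, 9.61 and 6.56 in PTCL, and between 8.54 and 10.04 with a median of 9.39 in TZL. The B dogs were lower but not uniform, since DLBCL ran from 1.93 to 6.02 with a median of 2.86, MZL dogs had 2.86, 4.70, 5.89, 5.55 and 5.30, and BL dogs had 4.40 and 2.30. The T and B ranges again did not overlap. LEF1 averaged 9.38 ± 0.96 in T and 3.78 ± 1.48 in B (SD, n = 17 each), a log2 difference of 5.61 (SE 0.41, limma adjusted p = 1.48e-12), or 28.2-fold with low values set to the minimum. In all, 47 of the 7500 genes tested, 0.627%, had every T dog above every B dog, and GATA3 and LEF1 were the members among them.

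TCF7, the relative of LEF1, was below the minimum in all 17 B dogs. Its level was 7.81, 7.70, 8.17 and 7.90 in LBT, 7.08, 7.74, 4.94 and 2.72 in PTCL, and 3.35 to 7.71 with a median of 6.20 in TZL. In B it reached 1.60 to 2.41 in DLBCL (median 2.04), 2.39, 2.58, 2.92, 3.35 and 2.69 in MZL, and 2.53 and 2.22 in BL. The 4 LBT dogs formed a tight group, while PTCL replicate 4 fell inside the B range. The means were 6.27 ± 1.72 in T and 2.29 ± 0.44 in B (SD, n = 17 each), a log2 difference of 3.98 (SE 0.42, limma adjusted p = 2.44e-09), or 5.21-fold with low values set to the minimum.

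TOX showed another pattern. It was high in LBT, at 8.99, 8.11, 8.90 and 8.95, and in PTCL, at 8.75, 9.77, 9.13 and 7.65, but ran from 1.19 to 6.19 with a median of 5.26 in TZL. Among B dogs it spanned 1.54 to 5.52 in DLBCL (median 2.31), and was 2.24, 3.61, 4.50, 4.56 and 3.92 in MZL and 5.46 and 2.24 in BL. Every LBT and PTCL dog lay above every TZL and B dog, and TZL overlapped with B. TOX averaged 6.75 ± 2.27 in T and 3.45 ± 1.53 in B (SD, n = 17 each), a log2 difference of 3.30 (SE 0.64, limma adjusted p = 7.79e-05).

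IKZF2 followed TOX. It stood at 10.29, 9.86, 11.24 and 10.88 in LBT, at 8.46, 11.48, 7.94 and 5.97 in PTCL, and between 2.47 and 7.35 with a median of 4.68 in TZL. DLBCL dogs lay between 2.32 and 4.64 (median 2.77), MZL dogs at 3.06, 3.52, 3.12, 4.05 and 4.58, and BL dogs at 4.54 and 2.84. Its LBT dogs were apart from TZL and B, whereas its PTCL dogs reached into the TZL range. IKZF2 averaged 6.88 ± 3.09 in T and 3.26 ± 0.76 in B (SD, n = 17 each), a log2 difference of 3.62 (SE 0.74, limma adjusted p = 0.000159).

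Of the 7 factors, 5 passed the filter on low values, which asked for the minimum in at least 4 of the 34 tested dogs, and these 5 were higher in T. Across all 7500 genes, 46.5% were called in T against B, 22.3% as higher and 24.2% as lower in T. GATA3 reached the minimum in 19 dogs and TCF7 in 15, nearly all of them T dogs, so these genes passed the filter through the group where they are high and their count is a description only. Among low-grade dogs alone, TZL against MZL, GATA3 (log2 difference 5.49), LEF1 (4.47) and TCF7 (3.05) were still called, and TOX (1.18, limma adjusted p = 0.189) and IKZF2 (0.87, limma adjusted p = 0.361) were not. In that fit 2462 of 6781 genes were called. Among high-grade dogs alone, the 5 differences ran from 5.26 for TCF7 to 6.93 for IKZF2, and all 5 were called. The share of all genes called among high-grade dogs is not given here, so this count is a description only.

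TBX21 and RUNX3 did not pass the filter and entered none of the main comparisons between groups. TBX21 averaged 2.73 ± 1.0 in T and 2.13 ± 0.30 in B (SD, n = 17 each), and only TZL replicates 1 and 8, at 5.08 and 4.72, reached the minimum. RUNX3 averaged 2.09 ± 0.13 in T and 2.03 ± 0.21 in B (SD, n = 17 each), with 2.37 as its highest value in any tested dog. Since its 1 probe set never reached the minimum, these arrays do not show whether RUNX3 differed between subtypes.

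Set against the B dogs separately, each T subtype had higher levels of all 5 factors that passed the filter. In the LBT dogs the log2 differences from B ran from 5.29 for TOX to 7.31 for IKZF2, and IKZF2 was 88.3-fold higher with low values set to the minimum (limma adjusted p = 4.06e-10). TCF7 was at least 14.9-fold higher in LBT, since every B dog was below the minimum. In the background, 34.2% of genes were called in LBT against B, 18.5% as higher and 15.7% as lower. In the PTCL dogs the differences from B ran from 3.33 for TCF7 to 5.97 for GATA3, with 21.4% of genes called, 11% as higher and 10.4% as lower.

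In the TZL dogs the differences from B were of unequal size. GATA3, LEF1 and TCF7 differed by 5.39, 5.56 and 3.55, whereas TOX had a log2 difference of 1.50 (SE 0.55, limma adjusted p = 0.0235) and IKZF2 of 1.27 (SE 0.50, limma adjusted p = 0.0339), where 49% of genes were called, 22.1% as higher and 26.9% as lower. The calls for TOX and IKZF2 were fragile. Without the array set the TOX difference was 1.35 (limma adjusted p = 0.0910), and without TZL replicate 2 neither TOX (1.35, limma adjusted p = 0.0528) nor IKZF2 (1.18, limma adjusted p = 0.0640) was called. Leaving out TZL replicates 3, 5 or 9 in turn also ended the call for IKZF2, with differences of 1.07, 0.92 and 1.21.

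**Figure D2:**
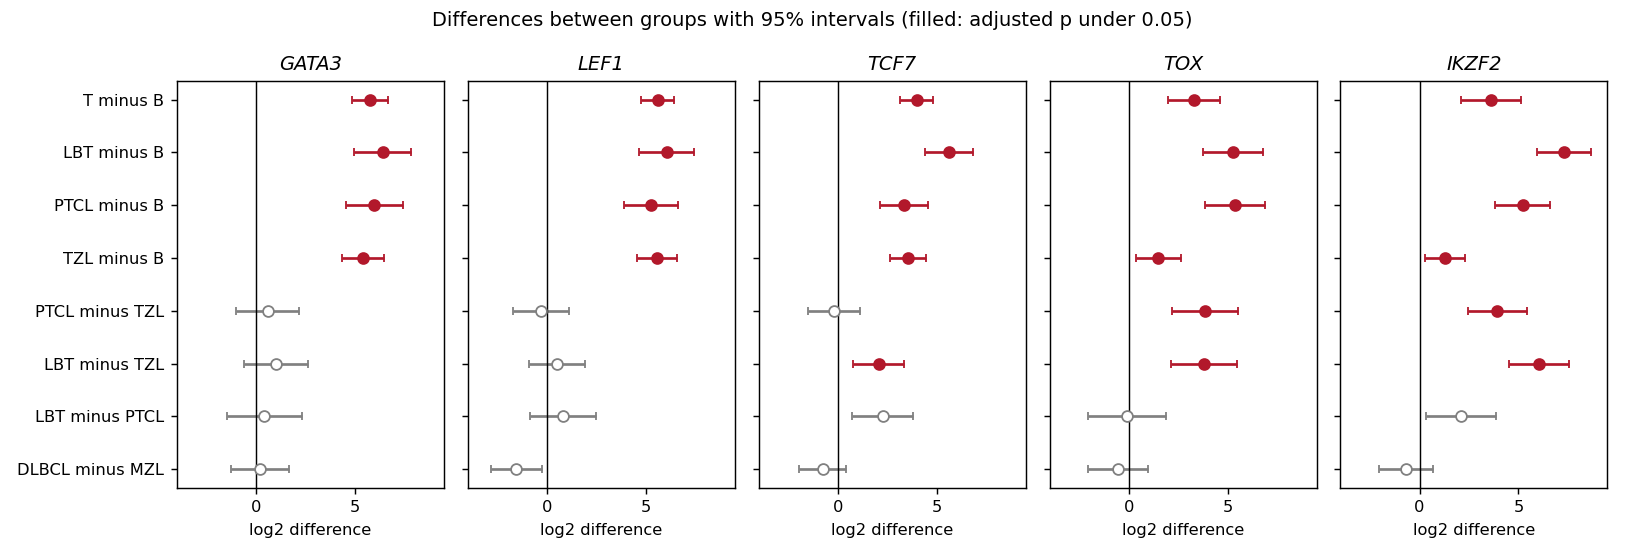
Log2 differences (horizontal axis) with 95% intervals for the 5 factors that passed the filter, in 8 comparisons, each named with the group on top of the difference first. Filled points have a limma adjusted p under 0.05. In the fits shown, without a term for the array set, GATA3 and LEF1 are called only in the comparisons with B, while TOX and IKZF2 are also called in PTCL and LBT against TZL.

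The comparisons among T subtypes ask how the factors differ once lineage is held fixed. TOX and IKZF2 were far higher in PTCL than in TZL. TOX averaged 8.82 ± 0.89 in PTCL (SD, n = 4) and 4.95 ± 1.49 in TZL (SD, n = 9), a log2 difference of 3.87 (SE 0.82, limma adjusted p = 0.00160). IKZF2 averaged 8.46 ± 2.28 in PTCL (SD, n = 4) and 4.53 ± 1.64 in TZL (SD, n = 9), a difference of 3.93 (SE 0.73, limma adjusted p = 0.000450). GATA3, LEF1 and TCF7 were not called, with 95% intervals of -1.02 to 2.19, -1.70 to 1.12 and -1.52 to 1.10. Thus 2 of the 5 tested factors were higher in PTCL, where 13.7% of all genes were called, 7.6% as higher and 6.07% as lower.

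LBT tumours, all high grade, exceeded TZL in the same pair of factors and in TCF7. IKZF2 averaged 10.57 ± 0.61 in LBT (SD, n = 4), against 4.53 ± 1.64 in TZL (SD, n = 9), and differed by 6.04 on the log2 scale (SE 0.73, limma adjusted p = 4.11e-07). TOX differed by 3.79 (SE 0.82, limma adjusted p = 0.000733). TCF7 averaged 7.89 ± 0.20 in LBT (SD, n = 4) and 5.83 ± 1.50 in TZL (SD, n = 9), a difference of 2.06 (SE 0.64, limma adjusted p = 0.0152). These were 3 of the 5 tested factors, in a comparison in which 30.1% of genes were called, 17.8% as higher and 12.4% as lower. The array set, which holds 3 TZL and no LBT dogs, moved the other factors. Without it TCF7 was no longer called (1.15, limma adjusted p = 0.130) and GATA3 was (1.90, limma adjusted p = 0.0295, against 1.01 and 0.353 with all dogs). GATA3 was also called over all dogs with the array set as a block (1.85, limma adjusted p = 0.0142) and with RNA quality covariates (1.72, limma adjusted p = 0.0217). TCF7 also lost its call with sex, breed and age as covariates (1.44, limma adjusted p = 0.113).

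Among the T subtypes, genes of dividing cells moved together with TOX and IKZF2. The mean of 4 markers of dividing cells was 9.08 ± 0.43 in LBT and 8.97 ± 0.82 in PTCL (SD, n = 4 each), against 6.44 ± 0.97 in TZL (SD, n = 9), and all 4 were called higher in LBT and in PTCL than in TZL, with median log2 differences of 2.81 and 2.71. Their part in the TOX and IKZF2 differences was not tested. In DLBCL, MZL and BL the same 4 markers averaged 8.59, 7.47 and 9.18. TOX averaged 3.21, 3.77 and 3.85 in these B subtypes, and IKZF2 2.97, 3.66 and 3.69. The mean of the T cell markers was 10.75 ± 0.54 in LBT, 10.08 ± 1.01 in PTCL and 10.66 ± 0.34 in TZL (SD), and 9 of the 10 T cell markers were not called in LBT against TZL and none was in PTCL against TZL. Some markers of other cells were also called, beside 30.1% of all genes in LBT against TZL and 13.7% in PTCL against TZL. In the first comparison 17.8% of genes were higher and 12.4% lower, and in the second 7.6% and 6.07%. In LBT against TZL 4 of 9 B cell markers and 2 of 2 plasma cell markers were lower, with means of 3.59 ± 1.28 in LBT and 5.50 ± 1.35 in TZL for the B cell list and 7.33 ± 0.34 and 8.67 ± 0.32 in the same groups for the plasma cell list (SD, n = 4 and 9). In the same comparison 1 of 10 macrophage and dendritic cell markers and 1 of 3 endothelial markers were higher, and 3 of 3 NK cell and 1 of 3 neutrophil and mast cell markers lower. The macrophage and dendritic cell list as a whole went the other way from its called marker, with a median log2 difference of -0.95. Its means were 4.54 ± 0.48 in LBT and 5.33 ± 1.23 in TZL (SD, n = 4 and 9). In PTCL against TZL 2 of 10 macrophage and dendritic cell markers and 1 of 3 endothelial markers were higher, with list medians of 1.21 and 1.85. The part of these cells was not tested.

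LBT and PTCL could not be separated by these factors. The largest differences were 2.27 for TCF7 (SE 0.76, limma adjusted p = 0.161, 95% interval 0.73 to 3.82) and 2.11 for IKZF2 (SE 0.86, limma adjusted p = 0.286, 95% interval 0.35 to 3.87). None of the 5 was called by limma, 2 of them had an unadjusted p under the same threshold (0.00518 for TCF7 and 0.0203 for IKZF2), and 0.68% of all genes were called, 0.467% as higher and 0.213% as lower in LBT. A single dog decided this count. Without PTCL replicate 2, which had the highest IKZF2 level of all dogs, IKZF2 (3.11, limma adjusted p = 0.0370) and TCF7 (2.98, limma adjusted p = 0.0327) were both called as higher in LBT. In that fit 173 of 7457 genes were called. For TOX the difference was -0.09, with a 95% interval of -2.05 to 1.88.

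Among B subtypes, DLBCL against MZL gave no called gene in all of the 7500 tested (0% called), although 977 genes had an unadjusted p under 0.05. LEF1 had the largest difference of the factors. It averaged 3.32 ± 1.45 in DLBCL (SD, n = 10) and 4.86 ± 1.20 in MZL (SD, n = 5). The log2 difference was -1.54 (SE 0.63, unadjusted limma p = 0.0205, adjusted p = 0.280). With array weights it was called (-1.77, limma adjusted p = 0.0421). The MZL dogs with the highest LEF1 levels, replicates 3, 4 and 5 at 5.89, 5.55 and 5.30, also had the highest T cell marker means among MZL dogs, 7.70, 7.82 and 7.42. The part of T cells in this difference was not tested.

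The step from low to high grade was then compared between lineages, as PTCL minus TZL less DLBCL minus MZL. TOX (4.43, SE 1.11, limma adjusted p = 0.0268) and IKZF2 (4.63, SE 0.99, limma adjusted p = 0.00988) had a larger step in the T lineage, 2 of the 5 factors, where 1.96% of genes were called, 1.21% in this direction and 0.747% in the other. In the T lineage TOX and IKZF2 were 3.87 and 3.93 higher in PTCL than in TZL, whereas in the B lineage they were -0.56 and -0.70 in DLBCL against MZL. Both calls depended on single dogs. Without PTCL replicate 2 neither was called, TOX at 4.12 (limma adjusted p = 0.0924) and IKZF2 at 3.62 (limma adjusted p = 0.0517). The TOX call was also lost without PTCL replicate 3 (0.0649), MZL replicate 3 (0.0606) or MZL replicate 4 (0.0582), each figure a limma adjusted p, and the IKZF2 call without the array set (4.26, limma adjusted p = 0.0710).

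**Figure D3:**
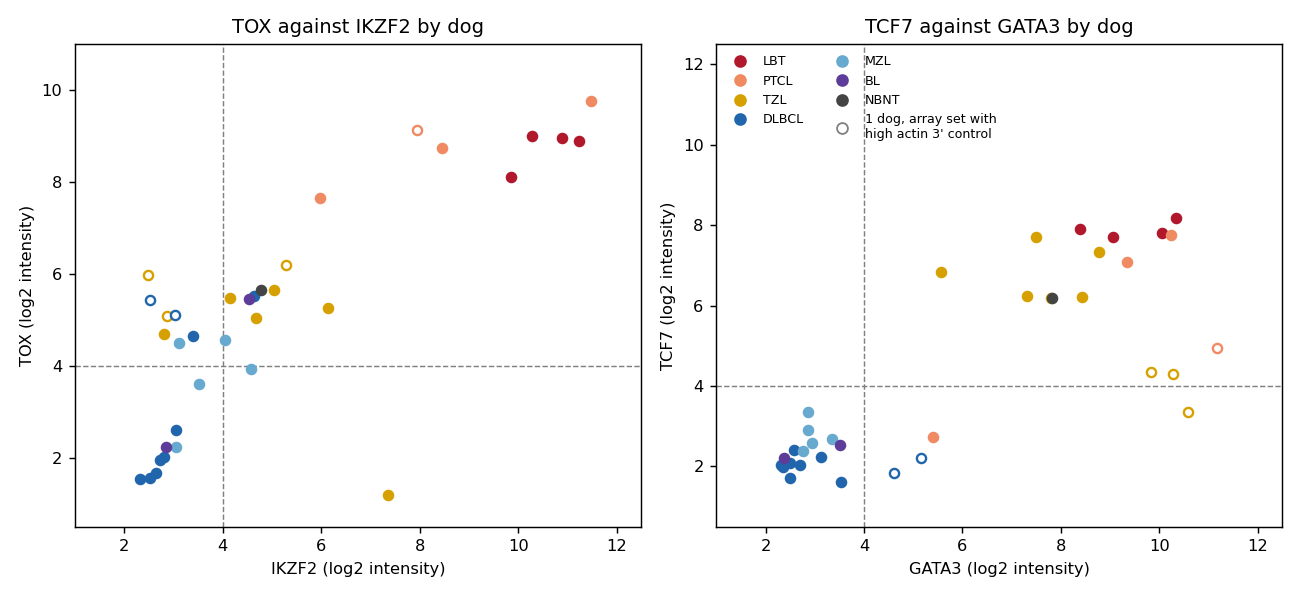
Left, TOX (vertical) against IKZF2 (horizontal), and right, TCF7 (vertical) against GATA3 (horizontal), in log2 intensity by dog, with open points for the array set and dashed lines at the minimum of 4. LBT and PTCL dogs sit at the upper right of the left panel and TZL replicate 5 at its foot, with TOX at 1.19 and IKZF2 at 7.35. In the right panel the 3 TZL dogs of the array set combine the highest GATA3 levels of that subtype with its lowest TCF7 levels.

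Several dogs stood apart from their subtype. PTCL replicate 4, the tumour of intermediate grade, was the lowest PTCL dog for GATA3 (5.39), LEF1 (6.56), TCF7 (2.72), TOX (7.65) and IKZF2 (5.97). It also had the lowest T cell marker mean of all T dogs, 8.74, and the highest B cell marker mean, 7.49. Its TOX nonetheless exceeded that of every TZL and B dog. TZL replicate 5 had the lowest TOX of all dogs, 1.19, and the highest IKZF2 of the TZL dogs, 7.35. The other 8 TZL dogs had TOX between 4.69 and 6.19.

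GATA3 and TCF7 differed between the array set and the other arrays of the same subtypes. In TZL, GATA3 lay between 9.83 and 10.59 in the 3 dogs of the set, against 5.56 to 8.78 in the other 6, and TCF7 between 3.35 and 4.35 in the set, against 6.17 to 7.71. Neither pair of ranges overlapped. In a fit with subtype means, added after seeing the data, GATA3 was 2.52 higher (SE 0.44, limma adjusted p = 8.69e-05) and TCF7 1.42 lower, as a difference of -1.42 (SE 0.45, limma adjusted p = 0.0222), and 22.4% of all genes were called, 9.45% as higher and 12.9% as lower. LEF1 (1.31, limma adjusted p = 0.0624), TOX (1.57, limma adjusted p = 0.0568) and IKZF2 (-0.89, limma adjusted p = 0.291) were not called. The T against B differences without the set were 5.50 for GATA3, 5.78 for LEF1, 4.57 for TCF7, 3.60 for TOX and 4.24 for IKZF2, and all 5 stayed called. In PTCL against TZL without the set, TOX (4.17, limma adjusted p = 0.00609) and IKZF2 (3.61, limma adjusted p = 0.00952) also kept their calls. Within the set alone, with 4 T and 2 B dogs, T against B gave 5.58 for GATA3 (limma adjusted p = 0.00416), 4.03 for LEF1 (limma adjusted p = 0.00583), 2.22 for TCF7 (limma adjusted p = 0.0698), 1.32 for TOX (limma adjusted p = 0.541) and 1.86 for IKZF2 (limma adjusted p = 0.543). Its only PTCL dog differed from its 3 TZL dogs by 3.38 for TOX (limma adjusted p = 0.0331) and 4.40 for IKZF2 (limma adjusted p = 0.113), where a lone dog is taken to vary like the others.

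IKZF2 is covered by 4 probe sets, and they did not read alike. The probe set used above had the highest mean over all arrays. Another gave 7.50 to 9.38 in LBT, 2.68 to 9.69 in PTCL and 2.14 to 3.46 in TZL, and correlated with it at r = 0.895 over 17 T dogs. No TZL dog and no B dog reached the minimum with this other probe set. By it, an alternative chosen after seeing the data, IKZF2 differed by 5.78 in LBT against TZL and by 4.26 in PTCL against TZL (limma adjusted p = 2.21e-07 and 8.37e-05), but TZL against B was not called (0.41, limma adjusted p = 0.474). The probe set with the next highest mean over all arrays was dim, between 2.59 and 5.03 in T dogs, and correlated with the one used above at r = 0.290. By this dim probe set IKZF2 was called in no comparison, with a log2 difference of -0.013 in T against B. The last never reached the minimum in a T dog. The second probe set of LEF1 followed its first closely (r = 0.916 over 17 T dogs), and that of TCF7 less so (r = 0.796), with 3 T dogs at the minimum. Where in the transcripts these probe sets lie was not analysed here.

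**Figure D4:**
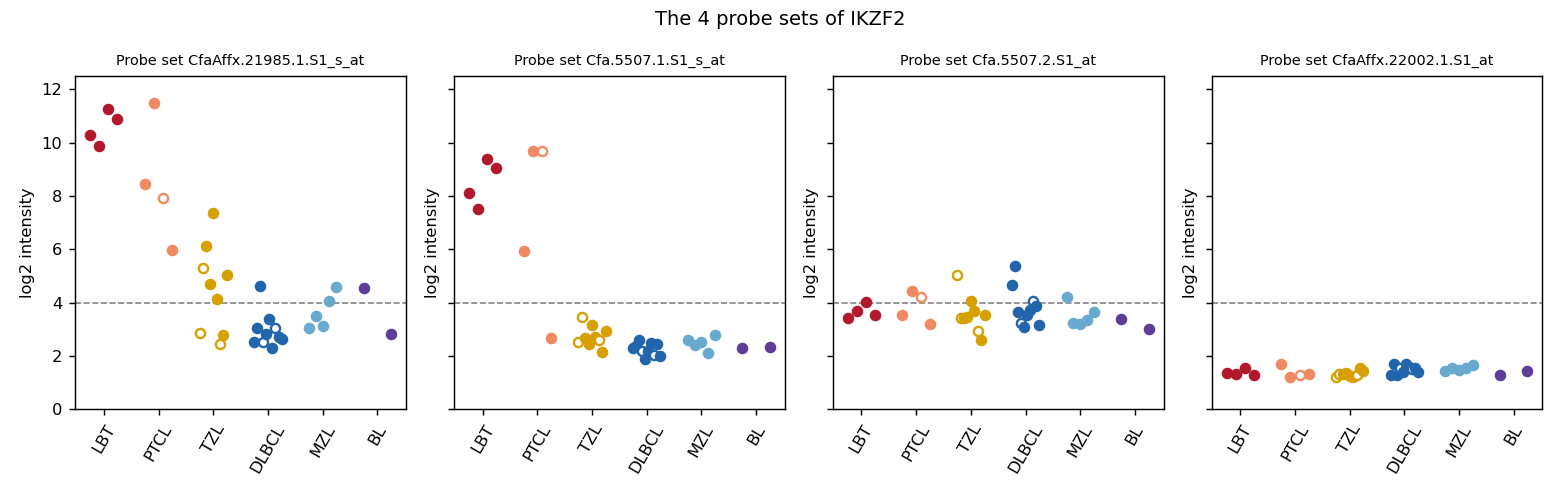
Log2 intensity (vertical axis) of the 4 probe sets of IKZF2 by subtype, 1 point per dog, open points for the array set, dashed line at the minimum of 4. The first 2 panels show high values in LBT and in most PTCL dogs, and TZL dogs reach the minimum in the first panel but not in the second.

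The order of subtype means shows where neighbours could be told apart. For GATA3 the order was LBT 9.46, PTCL 9.03 and TZL 8.45, then DLBCL 3.14, MZL 2.96 and BL 2.95, and only the gap between TZL and DLBCL exceeded the larger SD of its neighbours. LEF1 ran LBT 9.84, TZL 9.33, PTCL 9.04, MZL 4.86, BL 3.35 and DLBCL 3.32, with PTCL and MZL apart and MZL above BL by little more than the SD. For TCF7, LBT at 7.89 was above TZL at 5.83 and PTCL at 5.62, which were close to each other. TOX fell into PTCL 8.82 and LBT 8.74, then TZL 4.95, BL 3.85, MZL 3.77 and DLBCL 3.21, with a single gap beyond the spread, between LBT and TZL. IKZF2 went from LBT 10.57 and PTCL 8.46 to TZL 4.53, BL 3.69, MZL 3.66 and DLBCL 2.97.

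Members were also compared with each other across dogs within TZL and within DLBCL, the subtypes with at least 6 dogs. Of 42 pairs, 1 was called, TOX with TBX21 in DLBCL (Pearson r = 0.861, permutation p = 8.00e-05, adjusted p = 0.00336; Spearman rho = 0.903, adjusted p = 0.0328; n = 10). TBX21 was below the minimum in all of these dogs, and r without the 2 dogs farthest from the median was 0.789, where no pair was called. Without the array set 2 pairs were called by r in the 8 remaining DLBCL dogs, TOX with TBX21 (r = 0.838, adjusted exact permutation p = 0.0172) and TOX with IKZF2 (r = 0.942, adjusted exact permutation p = 0.00104, against r = 0.610 and adjusted p = 0.171 in all 10). Only 1 DLBCL dog, replicate 3, reached the minimum for IKZF2, so most IKZF2 values in this pair carry little order. GATA3 and TCF7 ran opposite to each other in TZL (r = -0.776, exact permutation p = 0.0136, adjusted p = 0.171; rho = -0.733, exact permutation p = 0.0311, adjusted p = 0.261; n = 9). Without the array set this r was 0.0057 over 6 dogs, so the relation rests on those 3 dogs.

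The levels of 3 factors in DLBCL tissue correlated with its T cell markers by r. In a comparison chosen after seeing the data, with 14 relations in all, TOX correlated with the mean of the T cell markers across the 10 DLBCL dogs at r = 0.891 (permutation p = 0.00135, adjusted p = 0.00945) and LEF1 at r = 0.760 (permutation p = 0.0117, adjusted p = 0.0422). The Spearman values were 0.709 (permutation p = 0.0263, adjusted p = 0.109) and 0.770 (permutation p = 0.0128, adjusted p = 0.0897), and without the 2 dogs farthest from the median r was 0.784 and 0.876. TOX reached the minimum in 4 of these dogs and LEF1 in 3. TBX21 had r = 0.862 (adjusted permutation p = 0.00945; rho = 0.794, adjusted p = 0.0897) at levels below the minimum. None of the 3 passed by rho after adjustment, and GATA3 (r = 0.483), IKZF2 (r = 0.556), TCF7 (r = 0.448) and RUNX3 (r = -0.247) were not called. In the 9 TZL dogs TCF7 was the only factor with an adjusted p under the threshold for r (r = 0.795, exact permutation p = 0.0121, adjusted p = 0.0422; rho = 0.733, exact permutation p = 0.0311, adjusted p = 0.109), and r was 0.566 without the 2 farthest dogs.

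TBX21 reached its highest levels in a few TZL dogs. In the 9 TZL dogs it ran from 2.22 to 5.08 with a median of 2.92. TZL replicates 1 and 8, at 5.08 and 4.72, were followed by replicates 9 and 3 at 3.91 and 3.44, and no other dog reached 3. The genes whose pattern was most like it over the 34 dogs were ZNF683, which encodes Hobit, a regulator of tissue-resident lymphocytes in mouse, and RCAN2, an inhibitor of calcineurin, at r = 0.859 and 0.835. ZNF683 had 8.23, 6.66, 8.01 and 4.75 in TZL replicates 1, 8, 9 and 3, and at most 3.62 in the other TZL dogs. RCAN2 had 5.64, 6.55, 7.67 and 5.84 in the same dogs, and at most 3.12 in the other TZL dogs. The same 4 dogs were thus the highest TZL dogs for all 3 genes. These likenesses are descriptions, picked as the highest of 7500 genes.

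**Figure D5:**
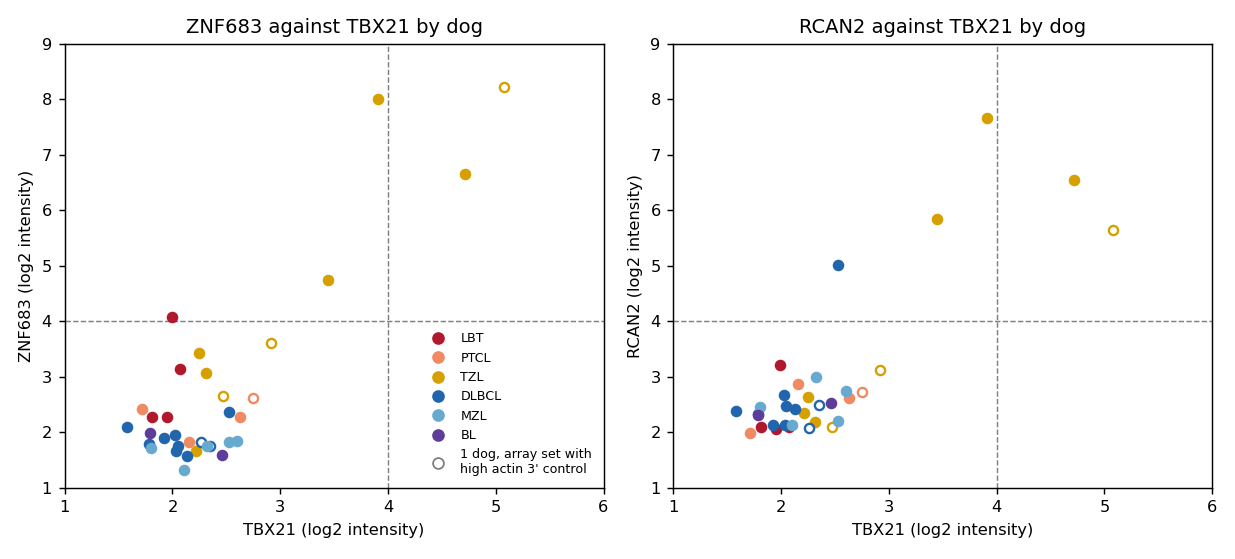
ZNF683 (left, vertical axis) and RCAN2 (right, vertical axis) against TBX21 (horizontal axes) in log2 intensity by dog, with open points for the array set and dashed lines at the minimum of 4. TZL replicates 1, 3, 8 and 9 form the upper right group in both panels, apart from nearly all other dogs.

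The genes most like the other members were found in the same way, by Pearson r over the 34 dogs and over the 17 T dogs, where dogs share subtype and array set. Over all dogs GATA3 was most like INPP4B, a lipid phosphatase (r = 0.942), and the kinase TNIK (0.941). LEF1 was most like TRAT1, which helps keep the T cell receptor complex at the surface (0.959), and the T cell kinase PRKCQ (0.951). TCF7 was most like SCML4 (0.936) and THEMIS, a protein of T cell selection in the thymus (0.929). TOX was most like RGS10 (0.933) and LMO4 (0.862), and IKZF2 most like SMOC2 (0.910) and AMPH (0.891). Over the T dogs alone, TOX was most like HMGB3 (0.960) and STMN1 (0.941), a tubulin-binding protein of dividing cells. IKZF2 was again most like SMOC2 (0.917), then ZNF821 (0.913), while GATA3 was most like LYRM2 (0.928) and CHMP2B (0.889), LEF1 like JAZF1 (0.867) and PPP1R13B (0.794) and TCF7 like SLC7A6 (0.916) and ARHGEF6 (0.896). SMOC2, a secreted matrix protein, averaged 11.01 ± 0.64 in LBT and 6.85 ± 3.48 in PTCL (SD, n = 4 each), against 2.30 ± 0.21 in TZL (SD, n = 9) and 2.54 ± 0.50 in B (SD, n = 17). RUNX3 never reached the minimum, so its nearest genes are not given.

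Paralogues of the members are genes of the same families. Of 23 paralogues in the list, 9 were tested in T against B, with 2 higher, 1 lower and a median log2 difference of 0.39, against -0.03 for all genes tested. In that comparison 46.5% of all genes were called, 22.3% as higher and 24.2% as lower. BCL11A, the B-lymphoid relative of BCL11B, fell by 2.30 (SE 0.42, limma adjusted p = 3.31e-05), and FLI1, an ETS factor, differed by 1.18 and TOX4 by 0.42. In TZL against B 3 of the 9 were higher and 2 lower, beside 49% of all genes called. In LBT against TZL 2 were higher and 1 lower, beside 30.1% of all genes called: CBFB, the partner of the RUNX proteins, differed by 2.14 (SE 0.42, limma adjusted p = 0.000254), GABPA by 1.42 and EOMES, the T-box relative of TBX21, by -1.88 (SE 0.73, limma adjusted p = 0.0490).

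Regulators of early T cells formed another list. Of 24 listed, 11 were tested in T against B, with 4 higher and 5 lower (median -1.26). In that comparison 46.5% of all genes were called, 22.3% as higher and 24.2% as lower. In LBT against TZL 2 of the 11 were higher and 2 lower, and in PTCL against TZL 1 was higher and 1 lower, beside 30.1% and 13.7% of all genes called, and none was called in LBT against PTCL. SATB1, a chromatin organiser of thymocytes, was 2.81 higher in T, and LMO2 and HHEX fell by 2.67 and 1.64 there. MYB, needed for thymocyte development, was 6.10 higher in LBT than in TZL (SE 0.53, limma adjusted p = 7.57e-10) and 3.76 higher in PTCL than in TZL (SE 0.53, limma adjusted p = 1.79e-05). In the same comparisons DTX1, a target of Notch signals, fell by 1.72 and 1.71. SATB1 and MYB also had larger grade steps in the T lineage, by 2.38 and 3.37.

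Cofactors of LEF1 and TCF7 were listed together with Wnt targets. Of 14 listed cofactors and Wnt targets, 11 were tested, with 4 higher and 1 lower in T against B (median 0.61). In that comparison 46.5% of all genes were called, 22.3% as higher and 24.2% as lower. TLE1, a corepressor, was 3.08 higher (SE 0.46, limma adjusted p = 1.58e-06), CTNNB1, which encodes beta-catenin, 1.02 higher (SE 0.13, limma adjusted p = 8.91e-08) and BCL9L 1.15 higher. TLE1 and CTNNB1 were also 2.11 and 0.86 higher in LBT than in TZL. Among 12 genes of naive T cells linked to these factors, 9 were tested, and 6 were higher and none lower in T against B (median 1.50), led by CD28, itself a T cell marker (6.10), IL7R (5.08) and CD27 (4.74). In LBT against TZL 2 of the 9 were higher, DPP4 (7.14) and IL6ST (3.13), and 3 lower, among them IL6R (-2.13). Of all genes, 30.1% were called there, 17.8% as higher and 12.4% as lower.

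Genes tied to the helper and effector roles of GATA3, TBX21 and RUNX3 did not move as 1 block. Beside the counts below, 46.5% of all genes were called in T against B, 22.3% as higher and 24.2% as lower. In TZL against B 49% were called, 22.1% as higher and 26.9% as lower. In LBT against TZL 30.1% were called, 17.8% as higher and 12.4% as lower. In PTCL against TZL 13.7% were called, 7.6% as higher and 6.07% as lower. Of 10 type 2 genes, the chemokine receptors CCR4 and CCR8 were tested, and both were higher in T than in B, by 2.84 and 3.46. Neither was called in LBT or in PTCL against TZL. Of 10 type 1 genes 6 were tested, and 4 were higher and none lower in TZL against B (median 1.93), among them IL18RAP (2.94) and the death ligand FASLG (1.91). FASLG and IL18RAP were -4.42 and -3.09 in LBT against TZL, and 2 of the 6 were lower in that comparison. Both were also lower in PTCL against TZL, at -3.4 and -2.4, and the other 4 were not called there. Of 12 cytotoxic genes 10 were tested, and 5 were higher in TZL against B (median 1.41), including CD8B (3.67) and CD8A (3.48). CD8A was not high in every TZL dog, since it ran from 2.85 to 10.97 and lay below the minimum in replicates 1, 4 and 8. In LBT against TZL 5 of the 10 were lower, including CD8B (-5.17) and CD8A (-4.33), and CRTAM was 2.82 higher. In PTCL against TZL CD8A (-3.67) was lower and CRTAM (2.00) higher, and the other 8 were not called. Markers of NK cells moved the same way, since 3 of 3 tested were higher in TZL against B and lower in LBT against TZL, although this list shares NKG7 and KLRD1 with the cytotoxic list. The mean of 6 measured NK cell markers lay between 2.37 and 3.23 in LBT, 2.61 and 5.20 in TZL and 2.41 and 4.94 in B dogs, and NCAM1 and NCR1 were below the minimum in every dog of these groups. The part of NK cells was not tested.

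Other regulators of T cell fate were described in the same way. Of 31 listed, 20 were tested, and in T against B 7 were higher and 2 lower (median 0.28). In that comparison 46.5% of all genes were called, 22.3% as higher and 24.2% as lower. BCL6 was 2.51 and STAT3 1.18 higher in T, and FOXO3 fell by 1.06. In LBT against TZL 6 were lower, none higher and 14 not called, with STAT4 at -3.66 (SE 0.57, limma adjusted p = 1.54e-05), PRDM1 at -2.81 and STAT3 at -1.21. Of all genes, 30.1% were called there, 17.8% as higher and 12.4% as lower. In PTCL against TZL 3 were lower, STAT4 (-2.03), KLF3 (-1.84) and ZNF683 (-2.39). Of all genes, 13.7% were called there, 7.6% as higher and 6.07% as lower.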

How the data were processed

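Total RNA from primary canine lymphomas was labelled with biotin and hybridised to Affymetrix arrays, per the labels' protocols. The authors deposited linear intensities, and the submitters' processing notes name GCRMA, a method that subtracts background, normalizes between arrays and summarises probes. Neither its version nor a genome build was stated in those sources, so no coordinates are printed.

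Intensities under 1 were set to 1 before log2 was taken. Of 43035 probe sets, 29254 had 1 gene symbol in the platform annotation, 439 several and 13231 none, beside 111 controls. The 2 arrays of a repeated DLBCL case (replicates 6 and 7), which differed by 0.046 to 0.59 on the log2 scale for the members' chosen probe sets, were averaged and count as 1 dog. Other replicates are separate dogs, numbered only by order. Genes at a log2 of at least 4 in at least 4 of 34 dogs, 7500 genes, were tested with lmFit and eBayes of limma 3.58.1 in R 4.3.3, two-sided, with Benjamini-Hochberg adjustment over all 7500, and called at an adjusted p under 0.05. T and B had a fit of their own, each T subtype was set against all B dogs in a second, and subtypes and grade steps were compared in a fit with 6 subtype means, so comparisons share dogs. "Higher" and "lower" of a gene in a list are used for called genes. Correlations used exact permutation tests below 10 dogs and 100000 resamples otherwise. Folds with low values set to the minimum raise each log2 value below 4 to 4.

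Members, gene lists and comparisons were chosen with earlier results of these data known. Genes were named by rule: all members, the 2 genes most like each over 34 and over 17 dogs, and up to 3 called genes of each list with the smallest p. Gene lists are human symbols. The steps were tested on simulated data. Alternatives covered filters, floor, normalization, variance model, array weights, probe sets, the repeated case, covariates, breed, grade, the array set and each dog left out. The figures were drawn with matplotlib 3.10.9.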

Additional observations from a re-analysis of the deposited data

Results flagged for a closer look

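A few members had a dog far from the rest of its subtype, judged by the gap to the nearest dog over the whole range. This happened in 4 of 35 groups of 4 to 10 dogs, and chance gives about 1 in 20. TOX in LBT replicate 2 was 8.11, against 8.90 to 8.99 in the other LBT dogs, and TOX in TZL replicate 5 was 1.19, against 4.69 in the nearest TZL dog. IKZF2 in DLBCL replicate 3 was 4.64, with 3.40 in the nearest. RUNX3 in PTCL replicate 1 was 2.18, below the minimum like every other RUNX3 value.

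The grade step differed between lineages for TOX, by 4.43 on the log2 scale, and for IKZF2, by 4.63, each tested as an interaction in limma. Neither was called without PTCL replicate 2 (limma adjusted p = 0.0924 and 0.0517). By its second-brightest probe set, which is dim, the IKZF2 step was -0.047. The step compares different subtypes, and its PTCL group holds the dog of intermediate grade.

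The NBNT dog, which entered no comparison, lay above every B dog for 5 members. Its log2 levels were 7.82 for GATA3, 9.29 for LEF1, 6.19 for TCF7, 5.64 for TOX and 4.77 for IKZF2, against B maxima of 5.15, 6.02, 3.35, 5.52 and 4.64. For TOX and IKZF2 the margin over the highest B dog was small. The share of all genes for which this dog lay above every B dog is not given here, so the count is a description only. All 5 values lay within the range of the T dogs. Its T cell marker mean was 10.47 and its B cell marker mean 7.17, the first within the T range and the second within the ranges of both phenotypes, with CD3E at 11.38 and MS4A1 at 10.13.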

How the results depend on the processing

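Over 2236 combinations of a result and an alternative, 2127 kept their direction and side of the threshold (or stayed within 1.5 times, for counts), 36 lost a call, 6 gained one, 44 changed sign and 23 counts moved. No called difference of GATA3, LEF1, TCF7 or TOX changed sign. IKZF2 was the exception among called results, since its second-brightest probe set, which is dim, gave -0.013 in T against B, -0.10 in TZL against B and -0.047 for the grade step, and no call for IKZF2 in any comparison.

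Counts of called members moved as follows. With the second probe set of each member, 3 were called in T, LBT, PTCL and TZL against B, and 1 each in PTCL against TZL, LBT against TZL and the grade step. Low-grade dogs alone gave 3 in T against B, beside 2462 of 6781 genes. Within the array set 2 were called in T against B and in TZL against B, where only 149 and 348 of 7500 genes were called. Array weights gave 1 in DLBCL against MZL, beside 378 of 7500 genes. The grade step count was 1 with no filter, without the array set and with sex, breed and age as covariates. In these fits 122 of 15115, 45 of 7358 and 135 of 7500 genes were called. Leaving out each dog in turn gave 3 to 5 in TZL against B, 0 to 2 in LBT against PTCL and 0 to 2 for the grade step. The count of 3 came without TZL replicate 2, beside 3491 of 7483 genes. Without PTCL replicate 2 the LBT against PTCL count was 2 and the grade step count 0, beside 173 and 61 of 7457 genes. Called correlations numbered 0 without the 2 farthest dogs and 2 without the array set.

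The other sign changes concern differences that were not called. In PTCL against TZL, TCF7 was 0.026 with the mean of probe sets, 0.035 with low values set to the minimum, 0.52 with covariates, 1.60 in Golden Retrievers only, 0.75 without the dog of intermediate grade and 0.94 within the array set, and LEF1 was 1.65, 0.54 and 0.045 under the last 3. In LBT against PTCL, TOX was 0.091 with array weights, 0.31 with the array set as a block (0.30696) or RNA quality covariates (0.30674), 0.016 without the set and 0.29 with sex, breed and age. In the same comparison Golden Retrievers only gave -0.98 for GATA3, -0.81 for IKZF2 and -1.43 for LEF1, leaving out the intermediate dog gave -0.79 for GATA3 and -0.030 for LEF1, and the second probe set -0.17 for IKZF2. In DLBCL against MZL, GATA3 was -0.13 with array weights, -0.32 with the set as a block, -0.26 without it and -0.78 with RNA covariates, IKZF2 0.32 with its second probe set and TOX 0.26 with low values set to the minimum. The TCF7 grade step was -0.13 without the set and -0.051 with RNA covariates. Over each dog left out, PTCL against TZL ran from -0.13 to 1.80 for GATA3, -0.93 to 0.54 for LEF1 and -0.92 to 0.75 for TCF7, LBT against PTCL from -0.48 to 0.23 for TOX, -0.79 to 1.14 for GATA3 and -0.030 to 1.44 for LEF1, DLBCL against MZL from -0.044 to 0.28 for GATA3, and the grade step from -0.15 to 1.52 for TCF7 and -0.31 to 1.62 for GATA3. Their causes were not tested.

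No paired analysis was possible because replicate numbers are only an order within a group. TCF7 in DLBCL against MZL has no value with low values set to the minimum, since all dogs are at it. Signal over background limits TBX21 and RUNX3.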
